A study of Mus musculus with 4 samples.

Results

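The genes described here are 7 annexins, Anxa1 to Anxa7, and the S100 genes S100a6, S100a10 and S100a11, whose proteins bind annexins. They were chosen by symbol, with earlier results of these data known. All 10 were found among the 24421 genes of the count files. The study sequenced poly(A) RNA of neural stem cells taken from the cerebral cortex of C57BL/6J mouse embryos at embryonic day 17, then grown for 1 day in a proliferation medium whose bFGF and EGF were each at 10 ng/mL. Cells of the 2 libraries labelled Prrc2bf/f; Nestin-Cre carry loxP-flanked (floxed) alleles of Prrc2b, a proline-rich coiled-coil gene, together with the transgene Nestin-Cre, in which sequences of the neural progenitor gene Nes direct the Cre recombinase. The 2 control libraries, labelled Prrc2bf/f, carry the same floxed alleles with no Cre named. Both groups were dissected, cultured and sequenced by the same protocol, and the comparison asks how expression differs when Prrc2b is targeted in neural cells. No library carries Nestin-Cre without the floxed alleles, so effects of the transgene itself cannot be told apart from those of targeting Prrc2b.

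Annexins are cytosolic proteins that dock onto acidic phospholipids of membranes when calcium rises, through a core of repeated domains, and their variable amino-terminal tails recruit partners. S100 proteins are small EF-hand proteins that pair into dimers. A dimer can hold the tails of annexins on separate membranes, as S100A10 does with annexin A2 and S100A11 with annexin A1. In the brain several of these genes are abundant in reactive glia, vascular cells, meninges and immune cells, and S100a10 has been used as a marker of astrocytes that react to ischaemia.

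Gene counts totalled 28205590 and 25936794 in Nestin-Cre replicates 1 and 2, and 26491919 and 28263272 in control replicates 1 and 2. Prrc2b transcript itself stood at 574 and 573 counts-per-million (CPM) in the libraries labelled Nestin-Cre, against 588 and 594 CPM in controls (log2 fold change -0.04 ± 0.02, adjusted p = 0.134 by edgeR's quasi-likelihood test). Which exons are deleted is not named by the labels, and this total of all exons does not check them. The Y-linked gene Ddx3y had 0 counts in both libraries labelled Nestin-Cre, against 24.45 and 23.7 CPM in controls. Xist, the RNA of the inactive X chromosome, was at 2209 and 2118 CPM in the libraries labelled Nestin-Cre and at 1672 and 1615 CPM in controls. The sex of the embryos and their genotype cannot be told apart in any value here. Both control libraries held Ddx3y and Xist together, each at like levels in the 2, and whether they pool embryos of both sexes was not tested. The labels do not say whether replicates are separate embryos or cultures. Each p-value rests on the spread among these libraries, which can be technical. Beyond counting noise that spread was small, a common coefficient of variation of 0.0242, so small p-values need not hold across embryos. Levels below are CPM after scaling by the trimmed mean of M values, changes are log2 fold changes of libraries labelled Nestin-Cre over control ± SE, and a gene is called when its adjusted p is under 0.05.

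Annexin transcripts were lower in the libraries labelled Nestin-Cre. All 7 annexins, together with S100a6 and S100a11, fell, and S100a10 did not pass the test. The 9 falls among 10 genes stand beside a background of 18.1% of all 15012 tested genes called lower and 15.1% called higher. That is 33.1% called in all. The 10 were chosen with earlier results of these data known, so their share is no independent test of enrichment. None of the 10 was called higher by edgeR's quasi-likelihood test, also at an unadjusted p under 0.05, and DESeq2 and limma voom likewise called 0. The members' median log2 fold change was -0.45, beside 0.01 over all genes tested, and all 10 passed the low-count filter. For each of the 10, S100a10 included, both libraries of a group lay on the same side of both libraries of the other, as they did for 64.9% of all genes tested. Summed over the 7 annexins, the level was 439 and 443 CPM in the libraries labelled Nestin-Cre, against 687 and 673 CPM in controls. The 3 S100 genes summed to 95.2 and 91.9 CPM in the libraries labelled Nestin-Cre and to 101 and 104 CPM in controls. In bulk RNA of this kind, fewer cells of a type and less RNA per cell cannot be told apart.

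**Figure D1:**
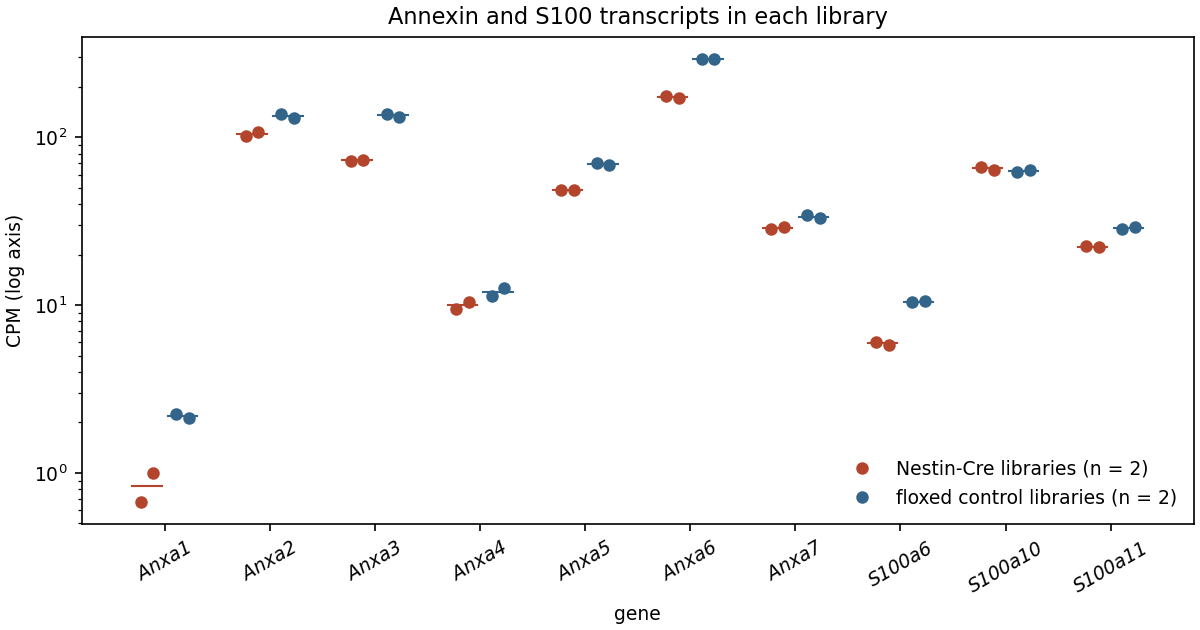
CPM on a log axis for each of the 10 genes, with a point per library (Nestin-Cre libraries left, floxed controls right) and a short line at the mean of each group. Anxa1 lies lowest, at 0.836 and 2.18 CPM on average in Nestin-Cre and control libraries, Anxa6 lies highest in both groups, and S100a10 is the gene whose groups lie closest together.

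Annexin A2 and S100A10 form the best studied pair, a tetramer that links membranes to the cortical actin network and binds plasminogen and its activator at the cell surface. Their genes lie on the plus strands of chromosome 9 (mm10, 69453620 to 69491795, Anxa2) and chromosome 3 (93555080 to 93564643, S100a10). Anxa2 had 102 and 108 CPM in the libraries labelled Nestin-Cre, against 138 and 131 CPM in controls. Both Nestin-Cre values lay below both controls, at 78.3% of the control level (log2 fold change -0.35 ± 0.04, adjusted p = 2.22e-10 by edgeR's quasi-likelihood test).

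S100a10 had 66.7 and 63.95 CPM in the libraries labelled Nestin-Cre, against 62.0 and 63.7 CPM in controls. The Nestin-Cre values were the higher ones, by a margin smaller than the spread within either group, and the log2 fold change of 0.06 ± 0.04 was not called (adjusted p = 0.335, edgeR quasi-likelihood test). Its 95% interval ran from -0.03 to 0.14, so a fall of the size seen for Anxa2 lay outside it. The partners stood in different proportions. Per length of all annotated exons, the ratio of Anxa2 to S100a10 transcript was 0.497 and 0.547 in the libraries labelled Nestin-Cre and 0.721 and 0.665 in controls. With the length of the principal transcript of each gene, a choice made after seeing the data, the ratio was 0.725 and 0.797 in the libraries labelled Nestin-Cre and 1.05 and 0.97 in controls. The ratio was lower in both Nestin-Cre libraries. A gene's length is the same in every library, so the choice of length could not change that order. The lower ratio restates the fall of Anxa2 beside S100a10, which was not called.

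S100A11 is the usual partner of annexin A1, the glucocorticoid-induced annexin known for damping inflammation through formyl peptide receptors. Anxa1 (chromosome 19, minus strand, 20373428 to 20390944) was the scarcest of the 10 and changed most. It had 19 and 26 counts in the libraries labelled Nestin-Cre, against 59 and 60 counts in controls, which is 0.672 and 1.0 CPM against 2.23 and 2.13 CPM. The groups were well apart even at this low depth, and the Nestin-Cre level was 38.2% of control (-1.39 ± 0.27, edgeR adjusted p = 7.48e-05). Only 1.13% of tested genes had a lower log2 fold change.

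S100a11 (chromosome 3, plus strand, 93520488 to 93526287) had 22.4 and 22.1 CPM in the libraries labelled Nestin-Cre, against 28.6 and 29.3 CPM in controls. Each group was tight and the Nestin-Cre values were lower, at 76.9% of control (-0.38 ± 0.06, edgeR adjusted p = 6.59e-06). S100a11 transcript shares stretches of at least 100 bases at over 90% identity with 5 annotated pseudogenes, the closest at 99.0% over 297 bases. None of the 5 is a row of the count files, and reads that match copies equally would not be assigned to a unique place, so the level of S100a11 is uncertain. S100a11 lies 28792 bases from S100a10 on the same strand, and the pair of neighbours differed in call.

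Among the members, Anxa2 and S100a11 were also alike in the letters just upstream of their start sites. The RefSeq promoter windows of both, 300 bases around the annotated start, are shown because they are the members' windows that hold TGANTCA, the letters that AP-1 factors bind, with matches in capitals. Both sequences are from RefSeq on GRCm38.p6, plus strand, for Anxa2 at chr9:69453433-69453732 and for S100a11 at chr3:93520246-93520545.
Anxa2: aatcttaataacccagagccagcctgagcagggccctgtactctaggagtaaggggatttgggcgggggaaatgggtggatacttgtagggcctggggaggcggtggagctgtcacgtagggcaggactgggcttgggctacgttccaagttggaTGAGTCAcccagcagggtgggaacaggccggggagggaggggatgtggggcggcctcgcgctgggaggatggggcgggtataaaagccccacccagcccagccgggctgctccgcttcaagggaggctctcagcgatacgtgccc
S100a11: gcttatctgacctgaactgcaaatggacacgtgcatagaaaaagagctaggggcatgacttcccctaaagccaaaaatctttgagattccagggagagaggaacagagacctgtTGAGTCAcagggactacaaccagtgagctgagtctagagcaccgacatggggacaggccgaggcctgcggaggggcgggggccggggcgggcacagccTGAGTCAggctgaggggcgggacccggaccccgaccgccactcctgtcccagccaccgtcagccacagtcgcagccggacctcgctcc
The Anxa2 match begins 95 bases before the start site, and those of S100a11 begin 136 and 38 bases before it. RefSeq windows were matched for 7 of the 10 genes, as 9 windows. Anxa3, Anxa6 and S100a10 had no window and were not searched. TGANTCA was found in 2 of the 9, against 7.81% of 32851 windows of all genes. Searched on both strands, TTCNNNGAA (the letters of STAT factors) and the interferon-stimulated response element were found in 0 of the 9 member windows, against 8.3% and 3.44% of all windows. GGAATG (of TEAD factors) was found in the window of Anxa1, and in 14.7% of all windows. No motif overlapped another in these windows, and such a match describes letters, not binding.

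S100a6 encodes calcyclin, an S100 protein of proliferating and glial cells that binds several annexins, among them annexin A11. S100a6 (chromosome 3, plus strand, 90612882 to 90624181) had 6.01 and 5.81 CPM in the libraries labelled Nestin-Cre, against 10.4 and 10.5 CPM in controls. The groups were far apart relative to their spread, and the Nestin-Cre level was 56.6% of control (-0.82 ± 0.11, edgeR adjusted p = 1.36e-07). Anxa11, the annexin bound by calcyclin, had 2.93 and 3.35 CPM in the libraries labelled Nestin-Cre and 3.9 and 3.8 CPM in controls, and was not called (-0.30 ± 0.17, edgeR adjusted p = 0.181, 95% interval -0.63 to 0.04). The S100 member that fell most is the one with the lowest level of the 3 per length.

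The remaining annexins act mainly at membranes without a fixed S100 partner. Annexin A6, a double-length annexin that organizes cholesterol-rich membrane and endocytosis, had the highest CPM of the 10. Anxa6 (chromosome 11, minus strand, 54979108 to 55033445) had 178 and 173 CPM in the libraries labelled Nestin-Cre, against 293.5 and 293.6 CPM in controls. The controls were nearly identical and the fall to 59.7% of control had the smallest adjusted p of the 10 (-0.75 ± 0.03, edgeR adjusted p = 9.06e-23).

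Anxa3, an annexin expressed by progenitor, vascular and myeloid cells, had 72.6 and 73.6 CPM in the libraries labelled Nestin-Cre, against 138 and 132 CPM in controls. Anxa3 and Anxa2 had like CPM, not scaled by length, in the control libraries, at 135 ± 3.85 and 134 ± 5.07 (SD, n = 2). Per kb of all annotated exons these were 37.1 ± 1.06 and 35.9 ± 1.36 CPM. Per kb of the principal transcript they were 84.8 ± 2.41 and 92.7 ± 3.5 CPM, so their order depended on the length. Anxa3 fell further than Anxa2, to 54.1% of control (-0.89 ± 0.04, edgeR adjusted p = 1.39e-21). The 95% intervals of the changes did not overlap, running from -0.96 to -0.81 for Anxa3 and from -0.43 to -0.28 for Anxa2. The gene is found on chromosome 5 (plus strand, 96793339 to 96845966). Anxa5, whose protein binds phosphatidylserine and helps seal torn membrane, had 48.3 and 48.4 CPM in the libraries labelled Nestin-Cre, against 69.9 and 68.1 CPM in controls. The Nestin-Cre values were below both controls, at 70.1% of their level (-0.51 ± 0.04, edgeR adjusted p = 3.01e-12). The Anxa5 gene is found on chromosome 3 (minus strand, 36448923 to 36475894).

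Anxa7 and Anxa4 changed least among the genes that were called. Anxa7, the synexin gene, whose product promotes fusion of secretory vesicles (chromosome 14, minus strand, 20455260 to 20480133), had 28.2 and 29.1 CPM in the libraries labelled Nestin-Cre, against 34.3 and 33.2 CPM in controls. The groups did not overlap and the level was 85.1% of control (-0.23 ± 0.06, edgeR adjusted p = 0.00148). DESeq2 did not call it (adjusted p = 0.0506), and over 15 alternatives its adjusted p ran from 0.000839 to 1. The value of 1 came from the test against a 1.2-fold change, which asks a stricter question. In the other alternatives it was at most 0.0506.

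Anxa4, an annexin of epithelial membranes (chromosome 6, minus strand, 86736840 to 86793584), had 9.44 and 10.5 CPM in the libraries labelled Nestin-Cre, against 11.3 and 12.7 CPM in controls. The highest Nestin-Cre value lay just under the lowest control, with a log2 fold change of -0.27 ± 0.10 (edgeR adjusted p = 0.0275). The call was lost without Nestin-Cre replicate 1 (-0.20) and without control replicate 2 (-0.19). It was also lost with no low-count filter (adjusted p = 0.0682) and with DESeq2 (adjusted p = 0.245). An adjusted p of 1 came from the test against a 1.2-fold change, which asks a stricter question. In the other alternatives that kept all libraries it ran from 0.0223 (replicate block) to 0.245. Exons of Anxa2, Anxa3 and Anxa4 share 98, 112 and 75 annotated bases with a noncoding or unclassified gene, on the opposite strand for Anxa2 and Anxa4. None of these 3 overlapping genes is a row of the count files.

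**Figure D2:**
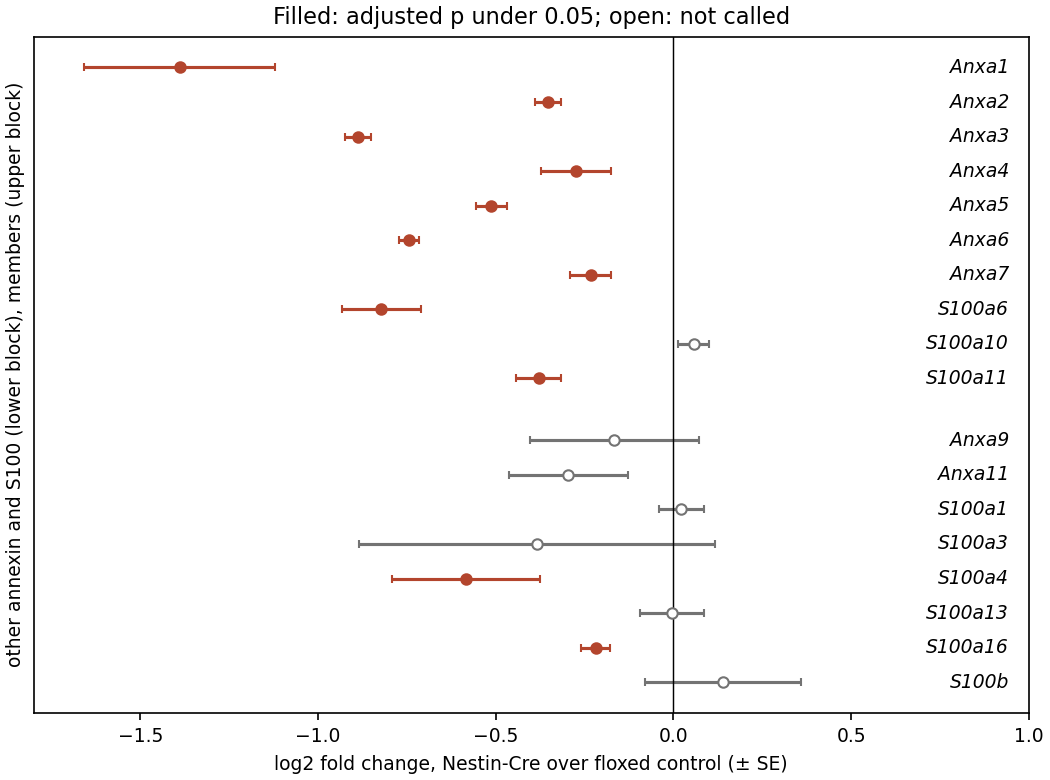
Log2 fold change of libraries labelled Nestin-Cre over floxed control, ± SE, for the 10 genes (upper block) and the 8 other annexin and S100 genes tested (lower block), filled where the adjusted p is under 0.05. In the upper block every point except that of S100a10 (0.06) is filled and left of 0, and in the lower block S100a4 (-0.58) and S100a16 (-0.22) are filled.

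Levels can be compared between genes only per length, and the order depended on the length used. By CPM per kb of all annotated exons, Anxa6 stood highest, at 59.8 ± 1.18 in the libraries labelled Nestin-Cre and 100.2 ± 0.0169 in controls (SD, n = 2 each). In the libraries labelled Nestin-Cre it was followed by S100a10 (53.9 ± 1.62 CPM per kb) and S100a11 (43.6 ± 0.422 CPM per kb), and in controls by S100a11 (56.7 ± 0.958 CPM per kb) and S100a10 (51.9 ± 1.01 CPM per kb). These neighbours differed by more than their spread, whereas Anxa2 and Anxa5 did not in the libraries labelled Nestin-Cre, at 28.1 ± 1.06 and 27.2 ± 0.0312 CPM per kb. Annotated exons of Anxa2, Anxa3 and Anxa4 add up to 3731, 3643 and 4645 bp, but their principal transcripts, those APPRIS picks as the main coding form, have lengths of 1447, 1595 and 2030 bp. With principal transcripts, S100a10 stood highest in the libraries labelled Nestin-Cre, at 95.4 ± 2.86 CPM per kb, before Anxa2 (72.5 ± 2.72) and Anxa6 (70.3 ± 1.39), and the last pair did not differ beyond its spread. In controls Anxa6 stayed highest, at 118 ± 0.0199 CPM per kb, and Anxa2 (92.7 ± 3.5) and S100a10 (91.8 ± 1.78) were within their spread. Anxa1 was the lowest of the 10 under both lengths, in both groups.

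The rest of the families was mostly scarce or not called. Of 5 further annexins, 2 passed the low-count filter and neither was called, Anxa9 at 1.63 and 1.5 CPM in the libraries labelled Nestin-Cre and 1.7 and 1.81 CPM in controls, and Anxa11 as given above. Anxa8, Anxa10 and Anxa13 had at most 4 counts in any library. Of 14 further S100 genes in the files, 6 passed the filter and 2 fell, and the other 8 had at most 4 counts in any library. With so few genes, these 2 falls are not set apart from the 18.1% called lower over all genes tested. S100a16, an S100 gene widely expressed in brain, had 69.1 and 72.7 CPM in the libraries labelled Nestin-Cre, against 84.7 and 80.3 CPM in controls (-0.22 ± 0.04, edgeR adjusted p = 4.77e-05). S100a4, a gene of migratory and fibroblastic cells, had 1.87 and 1.73 CPM in the libraries labelled Nestin-Cre, against 2.54 and 2.87 CPM in controls (-0.58 ± 0.21, edgeR adjusted p = 0.0273). The S100a4 call was lost with DESeq2 (adjusted p = 0.239) and without Nestin-Cre replicate 1 (adjusted p = 0.0817), Nestin-Cre replicate 2 (adjusted p = 0.143) or control replicate 2 (adjusted p = 0.176). Its adjusted p ran from 0.0243 to 0.239 over 15 alternatives. Of the 584 annotated exon bases of S100a4, 302 are shared with Gm42674, a coding gene on the same strand that has no counts of its own here. What this overlap does to the S100a4 level was not tested.

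S100a1 had 26.8 and 25.8 CPM in the libraries labelled Nestin-Cre and 25.0 and 26.75 CPM in controls, and S100a13 had 13.4 and 11.9 CPM against 12.5 and 12.9 CPM. Both were called neither higher nor lower, with 95% intervals of -0.11 to 0.15 for S100a1 and -0.19 to 0.18 for S100a13. The astrocyte marker S100b, at 2.09 and 2.15 CPM in the libraries labelled Nestin-Cre and 1.67 and 2.16 CPM in controls (0.14 ± 0.22, edgeR adjusted p = 0.675), and S100a3 (-0.38 ± 0.50, edgeR adjusted p = 0.604) were too scarce for a narrow estimate. The neutrophil gene S100a8 had 0 counts in all 4 libraries, which allows a level of up to 0.106 to 0.115 CPM per library, and its partner S100a9 had 3 counts in control replicate 1 and 0 counts in the other 3 libraries. S100 genes lie close together on chromosome 3, and within that cluster S100a16, S100a4 and S100a6 fell while S100a1, S100a13 and S100a3 did not pass the test.

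A list of annexin ligands and membrane repair genes was lower in part. The list is a broad one, and whether each protein binds an annexin was not tested. Of 23 tested, 14 fell and 9 did not pass, with a median log2 fold change of -0.28. Over all genes tested 18.1% were called lower and the median was 0.005. The gene lists here and below were chosen with earlier results of these data known. Their shares beside the background are therefore no independent test of enrichment. Ahnak, the giant scaffold that binds the annexin A2 and S100A10 complex, had 14.1 ± 0.0483 CPM in the libraries labelled Nestin-Cre and 26.2 ± 0.0858 CPM in controls (SD, n = 2 each; -0.89 ± 0.07, edgeR adjusted p = 4.72e-13). The ferlin gene Myof, whose product mends plasma membrane, had 8.68 ± 0.02 CPM in the libraries labelled Nestin-Cre and 18.0 ± 1.6 CPM in controls (-1.05 ± 0.09). The galectin gene Lgals1 (-0.30 ± 0.03) and the small calpain subunit gene Capns1 (-0.28 ± 0.03) fell as well. Lgals1 had 294 ± 0.124 CPM in the libraries labelled Nestin-Cre and 362 ± 9.59 CPM in controls.

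Plasminogen activation genes moved both ways, with 3 of 7 risen, 2 fallen and a median of 0.10. The shares over all genes tested were 15.1% higher and 18.1% lower, and 7 genes are few to set beside them. The urokinase gene Plau had 1.48 ± 0.14 CPM in the libraries labelled Nestin-Cre and 4.75 ± 0.456 CPM in controls (-1.69 ± 0.19, edgeR adjusted p = 3.46e-09). Its receptor gene Plaur fell by 1.55 ± 0.20 on the log2 scale, at 1.38 ± 0.153 CPM in the libraries labelled Nestin-Cre and 4.04 ± 0.204 CPM in controls. Plat, the tissue activator that S100A10 binds, was higher, at 282 ± 2.49 CPM in the libraries labelled Nestin-Cre and 263 ± 5.78 CPM in controls (0.10 ± 0.03, edgeR adjusted p = 0.00524). Serpini1, which encodes the neuronal inhibitor of that activator, was higher as well (0.31 ± 0.05, edgeR adjusted p = 4.23e-06).

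Genes that mark reactive astrocytes were lower as well. The counts below stand beside 18.1% of all genes tested called lower, 15.1% called higher and a median of 0.005. These lists too were chosen with earlier results known, so the counts describe the lists and do not test enrichment. All 13 genes of a set common to reactive states fell, with a median log2 fold change of -1.59, and they included the iron carrier gene Lcn2 (-4.66 ± 0.07), the protease inhibitor gene Serpina3n (-2.49 ± 0.04), the copper carrier gene Cp (-1.64 ± 0.04) and the intermediate filament gene Gfap (-1.42 ± 0.02). Of 10 tested genes of a set first described after ischaemia, in which S100a10 itself is usually placed and from which it was left out here, 9 fell and 1 did not pass, with a median of -1.19. Among them were the transglutaminase gene Tgm1 (-3.99 ± 0.09), the pentraxin gene Ptx3 (-1.96 ± 0.07), the tetraspanin-like gene Tm4sf1 (-1.85 ± 0.08) and Cd109 (-0.69 ± 0.04). S100a10, at 0.06 ± 0.04, was not called. Of 10 tested genes of the inflammatory set 7 fell and 1 rose, with a median of -0.93, examples being Ggta1 (-1.10 ± 0.08), the immunoproteasome gene Psmb8 (-1.53 ± 0.13) and Gbp2 (-1.37 ± 0.13), while the fibulin gene Fbln5 rose (0.85 ± 0.09).

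**Figure D3:**
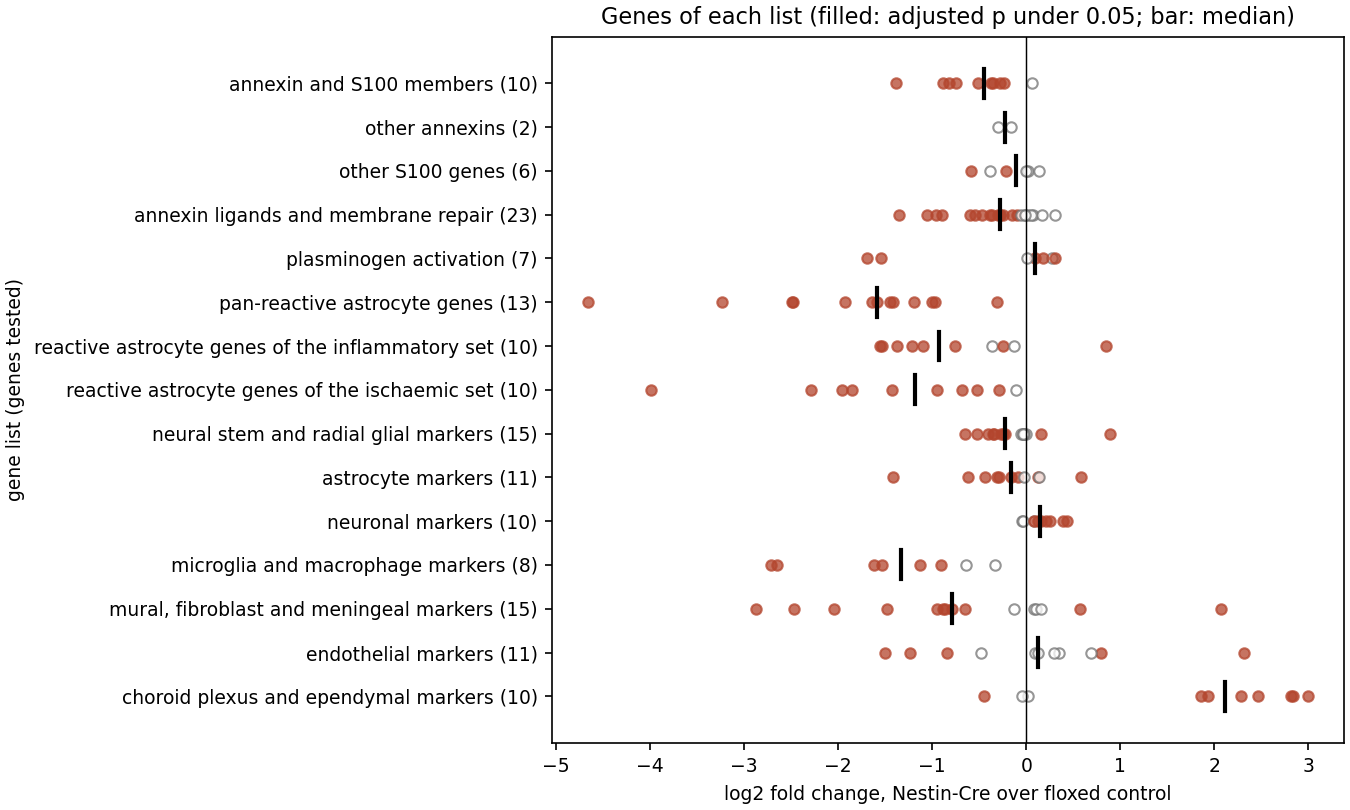
Log2 fold change of libraries labelled Nestin-Cre over floxed control for every tested gene of each list, with the number tested in brackets, a bar at the median and filled points for adjusted p under 0.05. The annexin and S100 genes spread between -1.39 and 0.06, with a median of -0.45, and the genes common to reactive astrocytes have a median of -1.59.

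Markers of some other cells were called beside the members, and among all genes tested 18.1% were called lower and 15.1% higher. Of 14 microglia and macrophage markers 8 were tested and 6 fell. They summed to 5.88 to 6.19 CPM in the libraries labelled Nestin-Cre and 12.6 to 14.4 CPM in controls. No marker of that list was at 0 in all libraries, but all were scarce. Lyz2 made up the largest part of both sums, at 2.46 ± 0.276 CPM in the libraries labelled Nestin-Cre and 5.34 ± 0.326 CPM in controls. Aif1, which was not tested, went the other way, with 15 and 8 counts in the libraries labelled Nestin-Cre and 2 and 3 in controls. Of 15 tested mural, fibroblast and meningeal markers 9 fell and 2 rose. The 17 summed to 165 to 169 CPM in the libraries labelled Nestin-Cre and 278 to 286 CPM in controls. Pdgfra, which was not called, made up the largest part of both sums. It was at 81.8 ± 0.146 CPM in the libraries labelled Nestin-Cre and 77.1 ± 2.2 CPM in controls. Col3a1 (-2.88 ± 0.07) and Col1a1 (-2.04 ± 0.06) fell most among those named by rule, and Ogn rose (2.07 ± 0.17). Of 11 tested endothelial markers 3 fell and 2 rose, counts near the shares over all genes, with sums of 115 to 119 CPM in the libraries labelled Nestin-Cre and 196 to 197 CPM in controls. Slc2a1, which other cells share, made up most of both sums, at 94.0 ± 1.72 CPM in the libraries labelled Nestin-Cre and 169 ± 0.33 CPM in controls. Of 10 tested choroid plexus and ependymal markers 7 rose and 1 fell. The marker that fell was Foxj1, a gene of ciliated cells (-0.45 ± 0.06), so the rise does not extend to all markers of this joint list. The 12 summed to 1391 to 1405 CPM in the libraries labelled Nestin-Cre, against 249 to 258 CPM in controls, most of it Ttr. Of 8 erythroid markers 5, all globin genes, had 0 counts in the 4 libraries and 1 was tested and not called. The part of any of these cells in the annexin values was not tested.

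The labelled cell type was checked against its own markers, again beside 18.1% of all genes tested called lower and 15.1% higher. All 15 neural stem and radial glial markers were tested, with summed levels of 6338 to 6364 CPM in the libraries labelled Nestin-Cre and 7286 to 7363 CPM in controls. Of these 8 fell and 2 rose, among them Tnc (-0.65 ± 0.02), Slc1a3 (-0.36 ± 0.02) and Nes (-0.22 ± 0.02) downwards and Hes5 upwards (0.89 ± 0.06). Of 11 tested astrocyte markers 7 fell and 2 rose, with sums of 2695 to 2698 CPM in the libraries labelled Nestin-Cre and 3598 to 3621 CPM in controls. Of 10 neuronal markers 7 rose and 3 did not pass, with sums of 2961 to 2982 CPM in the libraries labelled Nestin-Cre and 2594 to 2611 CPM in controls.

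The genes whose pattern over the 4 libraries lay nearest to that of Anxa1, by Euclidean distance between mean-centred log2 CPM, were Cdsn, Tmem171, Tead4, Ccrl2 and Akr1b8, at distances of 0.135 to 0.159. All 5 were scarce, like Anxa1, between 0.13 ± 0.0338 CPM for Ccrl2 and 0.817 ± 0.205 CPM for Cdsn in the libraries labelled Nestin-Cre, and between 0.458 ± 0.00498 and 2.31 ± 0.05 CPM for the same genes in controls. Their log2 fold changes ran from -1.35 for Akr1b8 to -1.79 for Ccrl2. In each of the 5, as in Anxa1, Nestin-Cre replicate 1 was lower than replicate 2. The 5 were picked by their pattern over these same libraries, so this likeness follows from the choice and is no separate result.

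**Figure D4:**
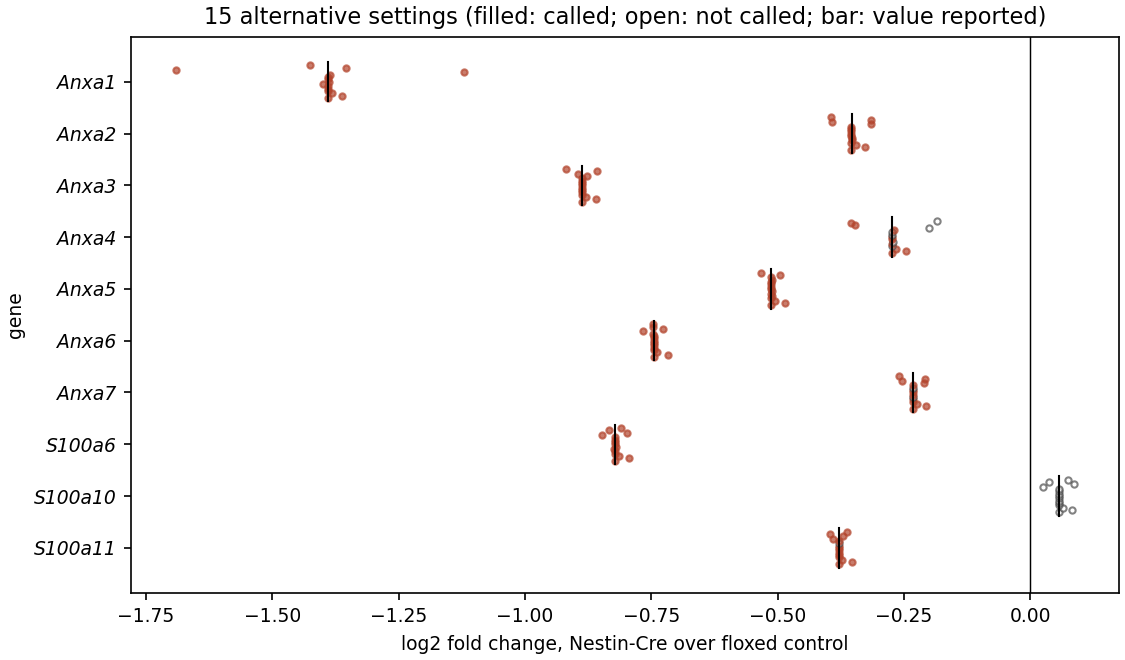
Log2 fold change of libraries labelled Nestin-Cre over floxed control for each of the 10 genes under 15 alternative settings, offset vertically for clarity, filled where called and open where not, with a bar at the value reported. All points of 9 genes lie left of 0, between -1.69 and -0.18, and those of S100a10 lie right of it, between 0.02 and 0.09, none of them called.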

How the data were processed

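The authors deposited raw counts per gene symbol, a table per library. Per the labels' protocols, libraries were poly(A)-selected, marked strand by dUTP and were read as pairs. The submitters' processing notes name HTSeq 0.12.4, HISAT2 2.2.1, DESeq2 1.26.0 and the mm10 build. Annotation and strand setting of the counting: not given in the sources used here. Summary lines of unassigned reads (25.2% to 26.1% of entries) were left out.

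Groups and replicate numbers came from the sample titles. edgeR 4.0.16 in R 4.3.3 (filterByExpr, trimmed mean of M values, quasi-likelihood F test with legacy off, Benjamini-Hochberg over 15012 genes, threshold 0.05) was fitted to all 4 libraries. An SE is the log2 fold change divided by the root of F. A floor of 3 counts is 0.106 to 0.115 CPM, for counting error only. With 2 against 2 libraries an exact permutation p cannot go below 0.333, so none was used. Replicates differed by more than sampling noise (chi-square per degree of freedom 1.96 and 2.2). Lengths and positions are from GENCODE M21 on GRCm38 (the assembly of mm10), principal transcripts by its APPRIS tags. Steps were tested on simulated counts. DESeq2 1.42.0 and voom of limma 3.58.1 were among the alternatives.

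Members and gene lists were chosen with earlier results of these data known. Genes named are the members, all further annexin and S100 genes tested, and up to 4 of each list with the smallest p. Also named are Prrc2b, the 5 nearest to the member that changed most, Foxj1, Aif1, Pdgfra, and genes given as markers at 0 or as checks.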

Additional observations from a re-analysis of the deposited data

How the results depend on the processing

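Over 15 alternatives no member changed direction, and Anxa1, Anxa2, Anxa3, Anxa5, Anxa6 and S100a6 were called lower in each. Between 6 (test against a 1.2-fold change) and 9 members were called lower, 7 with DESeq2. Leaving out each library in turn gave 8 to 9. Among all genes, DESeq2 called 1055 higher and 1642 lower, the test against a 1.2-fold change called 279 higher and 760 lower, and a threshold of 0.01 left 1490 higher. Upper quartile scaling turned the balance to 2939 higher and 2288 lower (2263 and 2711 as reported), so higher calls made up 56.2% of calls there and 45.5% as reported. In the test against a 1.2-fold change they made up 26.9%. The 2 other annexin and S100 genes called lower became 1 with DESeq2 or a threshold of 0.01 and 0 against a 1.2-fold change, and 1 to 2 when a library was left out. The replicate block left 9 members lower, with 2442 higher and 2881 lower among all genes. Same-numbered libraries did not deviate together (r = -0.0165 over genes), so the numbers are not taken as pairs. Genes that were not called changed sign as follows. Without single libraries S100a1 ran from -0.025 to 0.071, S100a3 from -1.546 (Nestin-Cre replicate 1 left out) to 0.21 (Nestin-Cre replicate 2 left out), S100b from -0.031 to 0.345 and S100a13 from -0.095 to 0.075. S100a13 also gave 0.023 with upper quartile scaling and 0.003 with total count scaling. The cause of these shifts was not tested. Among the tested annexin and S100 genes, depth limits Anxa1, Anxa9, S100a3, S100a4 and S100b most, which had under 100 counts in each library.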
